A study of Homo sapiens with 12 samples.

Results

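The 10 genes described encode chaperones and folding enzymes of the endoplasmic reticulum (ER): HSPA5, HSP90B1, CALR, CANX, PDIA3, PDIA4, PDIA6, P4HB, HYOU1 and SDF2L1. They were chosen by gene name, 10 of the 78894 genes in the expression matrix. The cells were cardiomyocytes differentiated from human induced pluripotent stem cells of 1 clone, WTC-mEGFP-ACTN2-cl85 (AICS-0075-085), and enriched by growth on lactate. All 4 groups shared the heterozygous mEGFP tag at the C terminus of endogenous ACTN2, so no untagged line and no other donor was compared. For 48 h, 3 independent cultures per group received vehicle (labelled as DMSO at 16 uM), 10 nM endothelin-1, 16 uM sacubitrilat, or endothelin-1 and sacubitrilat together. Endothelin-1 is a peptide that enlarges cardiomyocytes through Gq-coupled receptors, and sacubitrilat inhibits neprilysin, a peptidase that cleaves natriuretic peptides and endothelin-1. The study asked how neprilysin inhibition acts during endothelin-1 stress. Its primary comparisons were of endothelin-1 with vehicle and of the 2 compounds together with endothelin-1 alone.

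The ER is the compartment where secreted and membrane proteins fold. BiP, the product of HSPA5, binds exposed hydrophobic stretches of unfolded chains in an ATP cycle, while the lectins calreticulin and calnexin hold newly made glycoproteins and the protein disulfide isomerases form and rearrange disulfide bonds. When unfolded proteins accumulate, the unfolded protein response (UPR) raises many of these genes together through ATF6 and spliced XBP1. In heart muscle the ER is continuous with the sarcoplasmic reticulum, and calreticulin also buffers its calcium.

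The best known DNA sites of that shared control are the ER stress response element (ERSE, the letters CCAAT and CCACG with any 9 bases between them) and its shorter form (ERSE-II, ATTGG and CCACG with any 1 base between them), and they are shown because they are what the promoters of most of these genes have in common. RefSeq windows from 250 bases before to 50 after the start (GRCh38.p14) were searched on both strands, and 9 of the 10 genes had at least 1 window. ERSE was found in a window of 5 genes and ERSE-II in a window of 2, against 0.0769% and 0.0541% of all 35116 windows. The stretches below are 29 bases on the strand of the gene, 5′ to 3′, with the matched letters in capitals; a match that begins with CGTGG lies on the opposite strand.
HSPA5, ERSE: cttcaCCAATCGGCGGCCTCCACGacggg (chr9:125241386-125241414, minus strand)
HSP90B1, ERSE: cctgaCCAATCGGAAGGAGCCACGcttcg (chr12:103930211-103930239, plus strand)
HSP90B1, ERSE: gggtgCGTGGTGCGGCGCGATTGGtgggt (chr12:103930316-103930344, plus strand)
CALR, ERSE: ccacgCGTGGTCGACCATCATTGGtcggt (chr19:12938379-12938407, plus strand)
CANX, ERSE: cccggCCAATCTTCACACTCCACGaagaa (chr5:179698773-179698801, plus strand)
PDIA6, ERSE: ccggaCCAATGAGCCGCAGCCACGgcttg (chr2:10812848-10812876, minus strand)
HYOU1, ERSE-II: gccccgtgaCGTGGTCCAATcccaggccg (chr11:119057371-119057399, minus strand)
HYOU1, ERSE-II: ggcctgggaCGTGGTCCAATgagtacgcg (chr11:119057265-119057293, minus strand)
SDF2L1, ERSE-II: cctcggaagCGTGGACCAATcaaaaccct (chr22:21642105-21642133, plus strand)
In GENCODE 29, also on GRCh38, the stretches of HSPA5, CALR, HYOU1 and SDF2L1 lay outside the annotated range of their gene. Those of HSP90B1 and CANX overlapped an annotated exon of their own gene (the first of HSP90B1 also an exon of TTC41P), and that of PDIA6 lay in an intron, each upstream of a RefSeq start inside the annotated range. The CANX match lay inside 3 of the 4 windows of that gene and the PDIA6 match inside 1 of 2. The windows of PDIA4 and P4HB held neither element. PDIA3 had no window and was not searched. HYOU1 also held the UPR element TGACGTGG, which was in 0.729% of all windows and overlapped one of its ERSE-II matches. A match is a description of letters and not evidence that a factor binds there.

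Library depth split the groups before any gene was compared. Totals ran from 1268308 to 1953122 counts in the 6 single-compound libraries but only from 80844 to 316932 in the other 6, a 10.1-fold difference of means, so 3 counts correspond to 1.54 CPM in the deepest library and 37.1 CPM in the shallowest (CPM, the deposited count scaled to the library total). Each comparison of a deep with a shallow group therefore cannot be told apart from depth, and this covers both primary comparisons. The 2 comparisons of like depth were endothelin-1 against sacubitrilat and both against vehicle. All 11 cardiomyocyte markers had counts in every group, with summed levels of 8331 to 14936 CPM in vehicle, 21013 to 22304 with endothelin-1, 16735 to 17817 with sacubitrilat and 12534 to 19113 in the combined cultures. TNNT2 and TNNI1 went against these sums in both single-compound groups. The means of TNNT2 and TNNI1 were 2096 and 2796 CPM in vehicle, 1436 and 2031 with endothelin-1, 1338 and 2117 with sacubitrilat and 2431 and 3836 in the combined cultures. MYH7 and TNNI3 went against the sums with sacubitrilat. Their means there were 1145 and 76.4 CPM, below vehicle (1403 and 95.9) and the combined cultures (3018 and 115). The 9 fibroblast markers, which include collagens that load the same folding machinery, also had counts in every group. Their sums, though not every marker, followed the deep and shallow split: 1744 to 4958 CPM, 6729 to 7592, 7014 to 7325 and 1936 to 4443 in the same order. The 6 smooth muscle markers summed to 523 to 2127 CPM, 3698 to 3756, 2978 to 3016 and 928 to 2293. The 8 endoderm and liver markers moved the other way, at 200.4 to 680.3 CPM, 54.4 to 83.5, 48.5 to 59.4 and 452 to 584. The part of these cells in the chaperone results was not tested, and in bulk libraries fewer cells of a type and less RNA per cell cannot be told apart.

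Summed over the 10 genes, chaperone transcripts made up 3218 to 3395 CPM with sacubitrilat, 2688 to 2808 with endothelin-1, 2074 to 2207 with vehicle and 1524 to 1681 with both, and no 2 of these ranges overlapped. The ranges are a description of the libraries and carry no test. Orders and overlaps of libraries, here and below, are of deposited CPM. They leave out the scaling factors that the edgeR fit applies, from 0.903 in vehicle replicate 1 to 1.21 in vehicle replicate 2.

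Among the genes of the BiP system, HSPA5 (chr9:125234853-125241330, minus strand) read 227, 247 and 214 CPM in the vehicle cultures, 314, 305 and 286 CPM with endothelin-1, 373, 367 and 415 CPM with sacubitrilat and 275, 198 and 198 CPM in the combined cultures. Every sacubitrilat library was above every endothelin-1 library, these were above every vehicle library, and vehicle and combined libraries overlapped. HSP90B1 (chr12:103930107-103953645, plus strand), the ER member of the HSP90 family that finishes the folding of selected clients such as integrins and Toll-like receptors, was at 375, 346 and 422 CPM with vehicle, 512, 487 and 505 CPM under endothelin-1, 550.5, 483 and 539.9 CPM under sacubitrilat and 367, 334 and 385 CPM under both. Here the 2 single-compound groups overlapped each other and stood above the other 2 groups, which overlapped as well.

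HYOU1 (chr11:119044189-119057202, minus strand), a nucleotide exchange factor of BiP, was counted less often, at 47.3, 86.6 and 46.9 CPM with vehicle, 70.7, 84.8 and 83.2 CPM under endothelin-1, 92.5, 97.8 and 103 CPM under sacubitrilat and 68.7, 44.1 and 14.8 CPM under both. The sacubitrilat libraries were the 3 highest, while the shallow groups spread widely: the lowest value, in combined replicate 3, rested on 2 counts (95% Poisson interval 1.79 to 53.5 CPM, counting error only). SDF2L1 (chr22:21642261-21644298, plus strand), a partner of the J-domain cochaperones of BiP, was at 3.16, 49.5 and 11.7 CPM with vehicle, 12.9, 13.6 and 13.4 CPM under endothelin-1, 15.4, 19.7 and 15.9 CPM under sacubitrilat and 11.5, 12.6 and 14.8 CPM under both. The 6 shallow libraries held 1 to 4 counts of it, so no place is given to the shallow groups. The endothelin-1 libraries (20 to 23 counts) lay below the sacubitrilat libraries (21 to 31 counts) in CPM. The edgeR test did not call that difference (log2 fold change -0.22, 95% interval -0.73 to 0.28, adjusted p = 0.673).

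In the lectin cycle, CALR (chr19:12938578-12944489, plus strand), which encodes soluble calreticulin, read 628, 445 and 604 CPM with vehicle, 760.4, 677 and 707 CPM under endothelin-1, 944, 1091 and 977 CPM under sacubitrilat and 309, 365 and 289 CPM under both. It was the one gene of the 10 whose 4 groups were fully separated, in the order sacubitrilat, endothelin-1, vehicle, both. CANX (chr5:179678628-179730925, plus strand), which encodes calnexin, the membrane-bound counterpart, was at 164, 210.3 and 176 CPM with vehicle, 198, 207 and 195 CPM under endothelin-1, 223, 246 and 243 CPM under sacubitrilat and 149, 195 and 104 CPM under both. The sacubitrilat libraries were again the 3 highest, and the other 3 groups overlapped with their neighbour in the order.

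PDIA3 (chr15:43746392-43773279, plus strand), the disulfide isomerase ERp57 that both lectins recruit, had another order, with 121, 105 and 103 CPM in vehicle, 100.3, 107 and 101 CPM with sacubitrilat, 90.6, 81.4 and 76.8 CPM with endothelin-1 and 45.8, 47.2 and 33.3 CPM with both. In deposited CPM it was the one gene for which all 3 endothelin-1 libraries lay below all 3 vehicle libraries. Vehicle replicate 2 rested on 8.5 counts (95% Poisson interval 42.7 to 195 CPM), and edgeR did not call this difference (adjusted p = 0.189). The combined values were the lowest, with no overlap with any other group. The combined values rested on 4.0, 7.5 and 4.5 counts, however, and their 95% Poisson intervals (12.5 to 117 CPM, 21.8 to 99.3 CPM and 8.08 to 75.9 CPM, from counts rounded to whole numbers) reach, in the first and second of these libraries, into the values of other groups. Its counts were not whole in 8 of 12 libraries, and the pseudogenes PDIA3P1 and PDIA3P2 together held 37.2 counts beside 963 of PDIA3, so reads may be shared with these copies. For HSPA5 the same held in 7 libraries, with 18.7 counts of HSPA5P1 beside 3494 of HSPA5.

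Of the other disulfide isomerases, P4HB (chr17:81843159-81860694, minus strand), which encodes PDI and is also the beta subunit of the prolyl 4-hydroxylase that matures collagen, read 410.2, 353 and 305 CPM with vehicle, 594, 611 and 578 CPM under endothelin-1, 591, 594 and 639 CPM under sacubitrilat and 252, 309 and 322 CPM under both. Its 6 single-compound libraries lay in 1 band from 578 to 639 CPM, above every vehicle and combined library. PDIA4 (chr7:149003062-149028641, minus strand), the isomerase ERp72, was at 117, 247 and 82.0 CPM with vehicle, 146, 147 and 139.6 CPM under endothelin-1, 201, 187 and 218 CPM under sacubitrilat and 11.5, 88.2 and 74.1 CPM under both. The vehicle value of 247 CPM, in the shallowest library, rested on 20 counts (95% Poisson interval 151 to 382 CPM) and the combined value of 11.5 CPM on 1 count (0.290 to 63.8 CPM). PDIA6 (chr2:10783391-10837977, minus strand), the isomerase P5 that works beside BiP, was at 114, 86.6 and 111 CPM with vehicle, 110.0, 106 and 105 CPM under endothelin-1, 129, 138 and 143 CPM under sacubitrilat and 80.2, 88.2 and 88.9 CPM under both. Its sacubitrilat libraries were the 3 highest, while the vehicle libraries overlapped with both the endothelin-1 and the combined libraries.

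**Figure D1:**
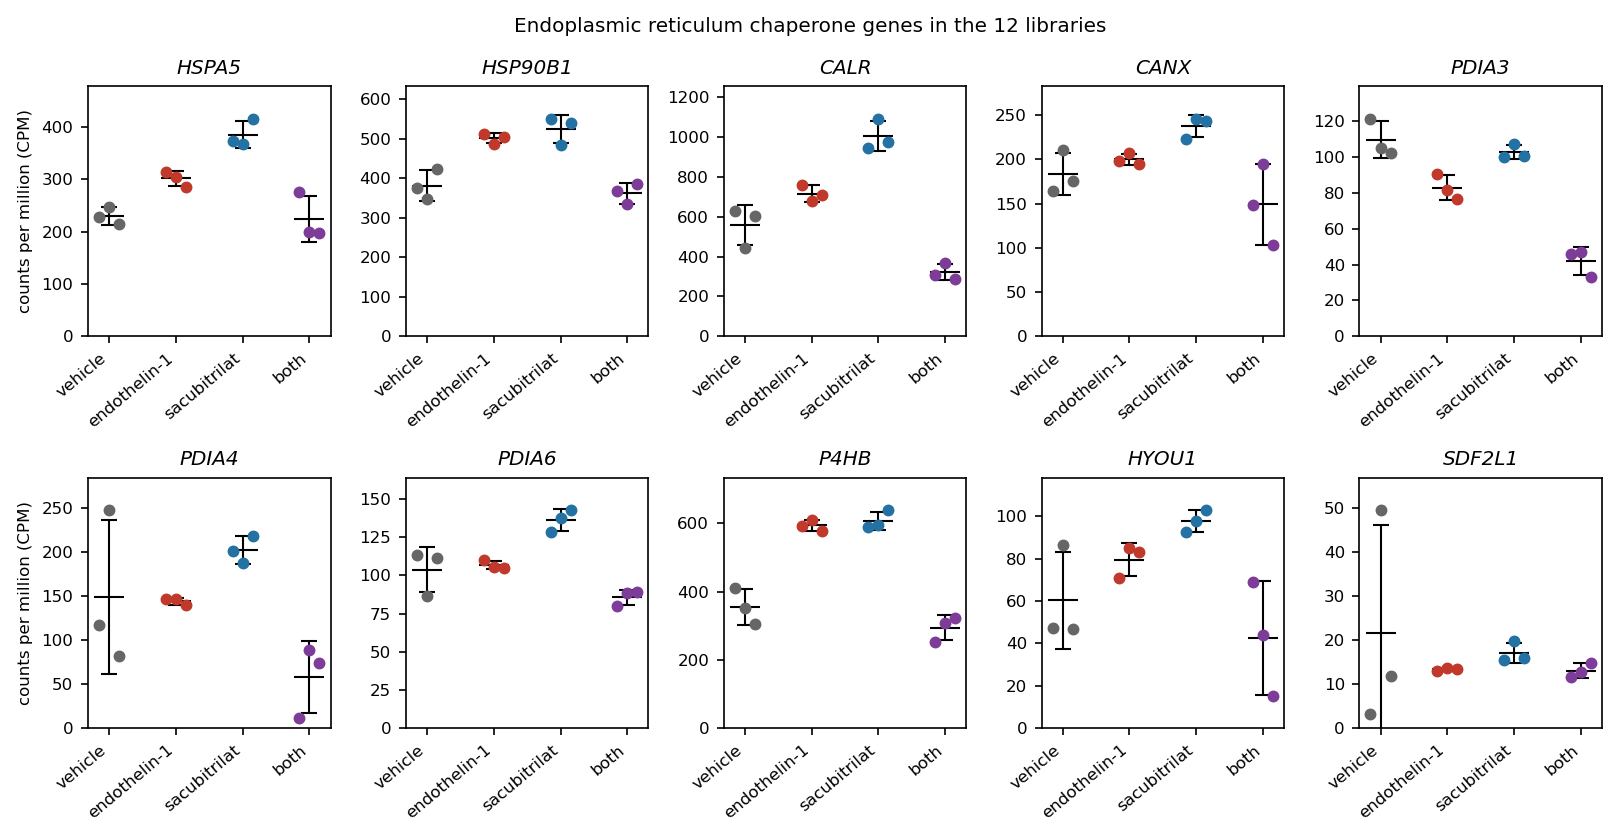
Deposited level (CPM, vertical axis from 0) of each chaperone gene in the 3 libraries of each group (points), with the group mean and SD (bars; the SD bar of SDF2L1 in vehicle is cut at 0). The sacubitrilat points are the 3 highest for HSPA5, CALR, CANX, PDIA6 and HYOU1. The 4 groups of CALR do not overlap, and PDIA4, HYOU1 and SDF2L1 scatter in the vehicle and combined libraries.

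In vehicle against endothelin-1, the first primary comparison, P4HB was the 1 chaperone gene that passed the test, and it was higher with endothelin-1. Its log2 fold change was 0.76 ± 0.19 (± is the standard error here and below; 3 against 3 libraries; edgeR quasi-likelihood adjusted p = 0.00271; the threshold is 0.05). HSPA5 at 0.46 ± 0.18 (edgeR adjusted p = 0.0531) and HSP90B1 at 0.43 ± 0.17 (edgeR adjusted p = 0.0675) came next and did not pass, although neither overlapped between the groups. Across all 11203 genes tested, which included all 10 chaperone genes, 23.2% were called, 11% higher and 12.2% lower, so 1 of 10 was below that background. By libraries that did not overlap, 4 chaperone genes were higher and 1 lower, against 24.1% and 19.0% of all genes. The 10 genes had a median of 0.30 (log2 fold change) and all genes one of 0.10. With every library thinned to 80000 counts no chaperone gene passed and P4HB was at 0.52 (edgeR adjusted p = 0.133; 8 of the 10 genes and 1815 genes in all tested). Of all 1815 genes 455 were called. Without vehicle replicate 1 the count was 4 (HSPA5, HSP90B1, CALR and P4HB), without combined replicate 1 it was 3, and without combined replicate 2 or 3 it was 2, all higher.

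In endothelin-1 against both compounds, the second primary comparison, 7 of the 10 genes were lower with both and none was higher. CALR fell most, by 1.18 on the log2 scale (standard error 0.23, edgeR adjusted p = 0.000139), followed by PDIA4 with a log2 fold change of -1.17 ± 0.33, HYOU1 with -1.04 ± 0.37, PDIA3 with -1.02 ± 0.35 and P4HB with -1.02 ± 0.21. HSP90B1 (-0.52 ± 0.19, edgeR adjusted p = 0.0327) and HSPA5 (-0.50 ± 0.20, edgeR adjusted p = 0.0482) passed narrowly, and CANX (-0.43 ± 0.22, edgeR adjusted p = 0.134), PDIA6 and SDF2L1 did not. The background was 34.4% of all genes called, 16.6% higher and 17.8% lower, and the medians were -0.77 for the 10 genes and -0.23 for all genes. All 3 combined libraries lay below all 3 endothelin-1 libraries for 8 of the 10 genes, against 31.6% of all genes (20.9% lay above). With the replicate number as a block, HSPA5 (edgeR adjusted p = 0.102) and HSP90B1 (0.0834) no longer passed and 5 genes did. At 80000 counts per library CALR alone of the 8 chaperone genes tested passed, at -0.96 (edgeR adjusted p = 0.00214), beside 781 of all 1815 genes. The count was 4 without any 1 of the endothelin-1 libraries or without combined replicate 3, with CALR, PDIA4 and P4HB called each time.

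In vehicle against sacubitrilat, 5 chaperone genes were higher with sacubitrilat: HYOU1 (0.81 ± 0.28, edgeR adjusted p = 0.0352), CALR (0.74 ± 0.20, 0.00786), HSPA5 (0.70 ± 0.17, 0.0035), P4HB (0.68 ± 0.19, 0.00872) and PDIA4 (0.61 ± 0.22, 0.0475). The other 5 did not pass: HSP90B1 was at 0.38 ± 0.17, CANX at 0.36 ± 0.19, SDF2L1 at 0.36 ± 0.56, PDIA6 at 0.25 ± 0.21 and PDIA3 at -0.22 ± 0.22. Of all genes 19.9% were called, 8.68% higher and 11.2% lower, and the medians were 0.50 for the 10 genes and 0.14 for all genes. Every sacubitrilat library was above every vehicle library for 7 of the 10 genes, against 28.1% of all genes (15.8% lay below). With the replicate block HYOU1 (edgeR adjusted p = 0.0573) and PDIA4 (0.0891) no longer passed. The other 3 did (HSPA5, CALR and P4HB), as they did without endothelin-1 replicate 2 or 3 or sacubitrilat replicate 3. At 80000 counts per library CALR alone passed, at 0.66 (edgeR adjusted p = 0.0292), beside 397 of all 1815 genes. The count was 2 without vehicle replicate 3 (HSPA5 and CALR) and 2 without sacubitrilat replicate 2 (HSPA5 and P4HB).

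In sacubitrilat against both compounds, 7 of the 10 genes were lower with both and none was higher. CALR was at -1.56 ± 0.23 (edgeR adjusted p = 1.84e-06), the lowest value of any of the 10 genes in the 6 pairwise comparisons, and PDIA4 at -1.55 ± 0.31 (edgeR adjusted p = 0.000183). The others were HYOU1 at -1.23 ± 0.36, PDIA3 at -1.20 ± 0.34, P4HB at -0.94 ± 0.21, HSPA5 at -0.74 ± 0.20 and CANX at -0.57 ± 0.22 (edgeR adjusted p = 0.0443; 0.0599 with the replicate block). All 10 genes had every combined library below every sacubitrilat library, but for SDF2L1 the combined libraries held only 1 or 2 counts, too few to place them; among all genes the share was 35.3%, with 19.4% in the other direction. The background was 35.0% called, 17.2% higher and 17.8% lower, with medians of -0.84 and -0.25. At 80000 counts per library 4 genes passed, CALR (-1.19), PDIA3 (-1.91), PDIA4 (-1.77) and P4HB (-0.65).

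The comparisons of like depth gave few calls. Both compounds against vehicle, 2 shallow groups, called none of the 10 genes with edgeR, beside 0.179% of all genes (0.0803% higher, 0.0982% lower). At an unadjusted p under 0.05 there were 3, all lower with both: PDIA3 (-1.42 ± 0.39, edgeR adjusted p = 0.126), PDIA4 (-0.94 ± 0.40, 0.342) and CALR (-0.82 ± 0.25, 0.175). Of all 11203 genes 1297 had an unadjusted edgeR p under 0.05 here, in either direction. DESeq2 called 2, CALR and PDIA3, and limma-voom none. The same 2 genes were those without overlap between the groups in deposited CPM (all genes: 7.83% lower, 4.94% higher), and edgeR called them without vehicle replicate 2. The 95% interval of the log2 difference of HSPA5 was -0.54 to 0.46 and that of HSP90B1 -0.53 to 0.36, so that sizeable differences in either direction were within the error at this depth. The median was -0.30 for the 10 genes and -0.081 for all genes.

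Endothelin-1 against sacubitrilat, 2 deep groups, called PDIA4 alone, lower with endothelin-1 at -0.38 ± 0.12 (edgeR adjusted p = 0.0338), beside 11.2% of all genes (6.44% higher, 4.78% lower). CALR was at -0.38 ± 0.18, HSPA5 at -0.24 ± 0.12, PDIA6 at -0.24 ± 0.11, SDF2L1 at -0.22 ± 0.25, HYOU1 at -0.19 ± 0.12, PDIA3 at -0.18 ± 0.12 and CANX at -0.14 ± 0.11, none of which passed. In 8 of the 10 genes all endothelin-1 libraries lay below all sacubitrilat libraries, against 25.6% of all genes (10.2% above), and the exceptions were HSP90B1 (0.050 ± 0.14, 95% interval -0.23 to 0.33) and P4HB (0.081 ± 0.15, -0.22 to 0.39). The median was -0.21 for the 10 genes and -0.015 for all genes. The call of PDIA4 was lost with the replicate block (edgeR adjusted p = 0.124), DESeq2, limma-voom, no filter, thinning, and without any 1 of the endothelin-1 libraries or sacubitrilat replicate 1 or 3. Without vehicle replicate 2, a library of neither group, CALR passed as well; that fit also tested 13684 genes in place of 11203. In this comparison the 5 epicardial markers summed to 36.8 to 45.5 CPM with endothelin-1 and 136 to 165 CPM with sacubitrilat, and 3 of the 4 tested (TBX18, ALDH1A2 and WT1) were called lower with endothelin-1 (vehicle 99.6 to 148 CPM, both 31.5 to 91.7 CPM). The summed cardiomyocyte and smooth muscle markers given above were higher with endothelin-1, without overlap, but not every marker was. Of the 11 cardiomyocyte markers 6 were called higher and 0 lower, and the means of ACTC1, MYH6 and TNNI1 were lower with endothelin-1. Of the 6 smooth muscle markers 2 were called higher and 0 lower, and the means of CNN1, RGS5 and PDGFRB were lower. The part of these cells in the result was not tested. A second line in the descriptions of these 6 libraries names the other compound, and exchanging the 2 labels turns every sign of this comparison.

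Whether the effect of sacubitrilat differed with endothelin-1 present was tested as the difference of 2 differences, both minus endothelin-1 less sacubitrilat minus vehicle. It was below 0 for all 10 genes and called for 7, against 46.1% of all genes (20.1% higher, 26.0% lower), with medians of -1.05 for the 10 genes and -0.43 for all genes. CALR had the lowest value, -1.92 ± 0.31 (edgeR adjusted p = 3.67e-06), and PDIA3, PDIA6 and SDF2L1 did not pass. This contrast sets the 6 deep libraries against the 6 shallow ones, so the interaction cannot be told apart from depth.

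**Figure D2:**
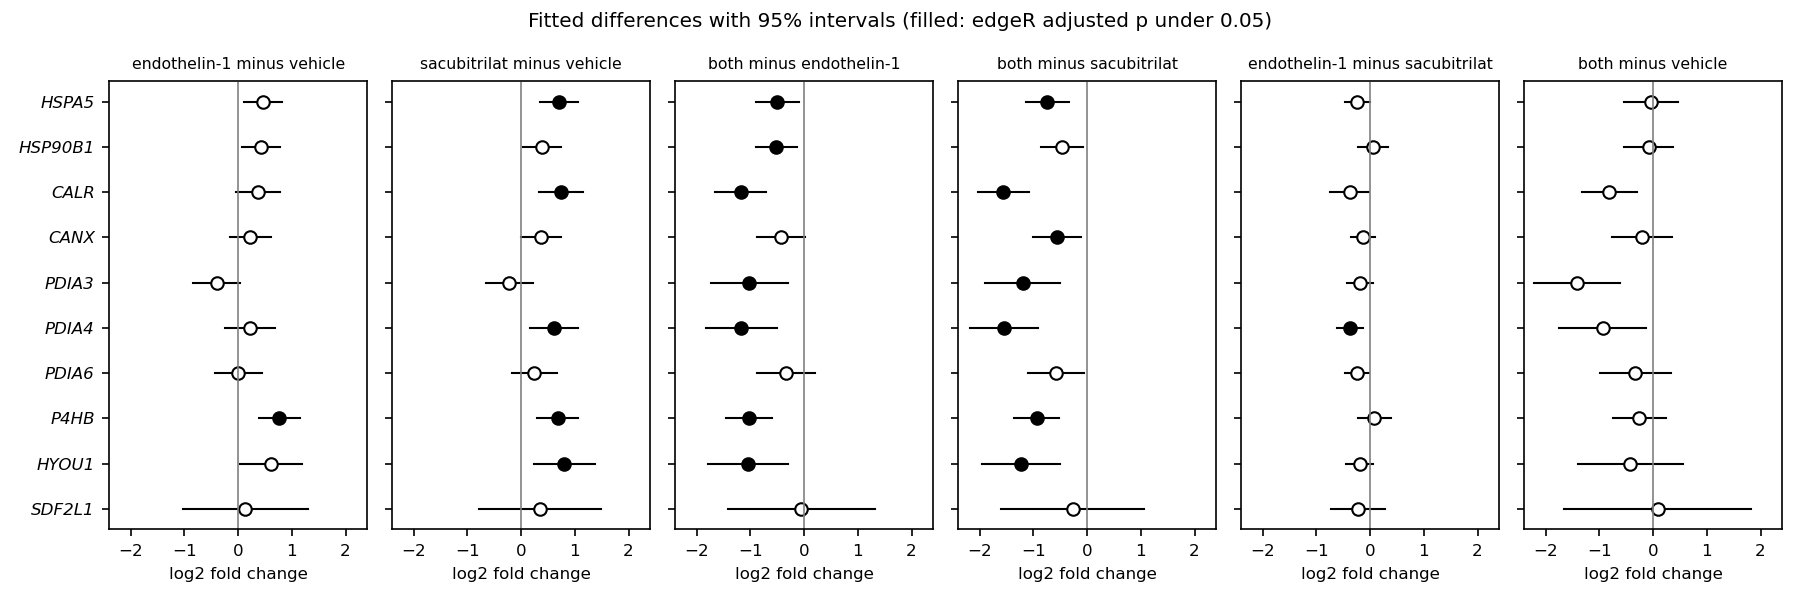
Fitted log2 fold change of each gene (horizontal axis) with its 95% interval in the 6 pairwise comparisons, filled where the edgeR adjusted p was under 0.05. Filled points lie to the right in the 2 comparisons of a single compound with vehicle and to the left in the 2 comparisons of both with a single compound; the 2 like-depth panels on the right hold 1 filled point, PDIA4.

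Calls fell on genes with and without an ER stress element. Of the 7 genes with an ERSE or ERSE-II match, 3 were called in vehicle against sacubitrilat and 4 in endothelin-1 against both, and of the 2 genes whose windows held neither, PDIA4 and P4HB, both were called in each. P4HB, the one call in vehicle against endothelin-1, had no match. These counts are a description, as the windows cover a short stretch of each promoter.

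The composition of the chaperone transcripts also differed between groups, a measure that does not use the library total. CALR supplied 30.3% ± 2.16 (SD, n = 3) of the summed counts of the 10 genes with sacubitrilat, 26.1% ± 1.10 with endothelin-1, 26.0% ± 4.81 with vehicle and 20.1% ± 1.43 with both. The sacubitrilat libraries (28.8% to 32.8%) and the combined libraries (19.0% to 21.7%) did not overlap with each other, and vehicle (20.5% to 29.1%) spanned much of the range between them. PDIA3 supplied 5.09% ± 0.361 in vehicle and 3.03% ± 0.188 with endothelin-1, 3.10% ± 0.128 with sacubitrilat and 2.64% ± 0.394 in the combined cultures, so that its vehicle share was above each treated group. The share of P4HB was 16.5% ± 1.96 in vehicle, 21.7% ± 0.691 with endothelin-1, 18.3% ± 0.490 with sacubitrilat and 18.5% ± 2.55 in the combined cultures. HSP90B1, at 17.8% ± 2.31, 18.3% ± 0.438, 15.8% ± 1.30 and 22.8% ± 2.75 in the same order, was relatively highest where CALR was lowest. Shares within a library are tied to each other, and no test was run on them.

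**Figure D3:**
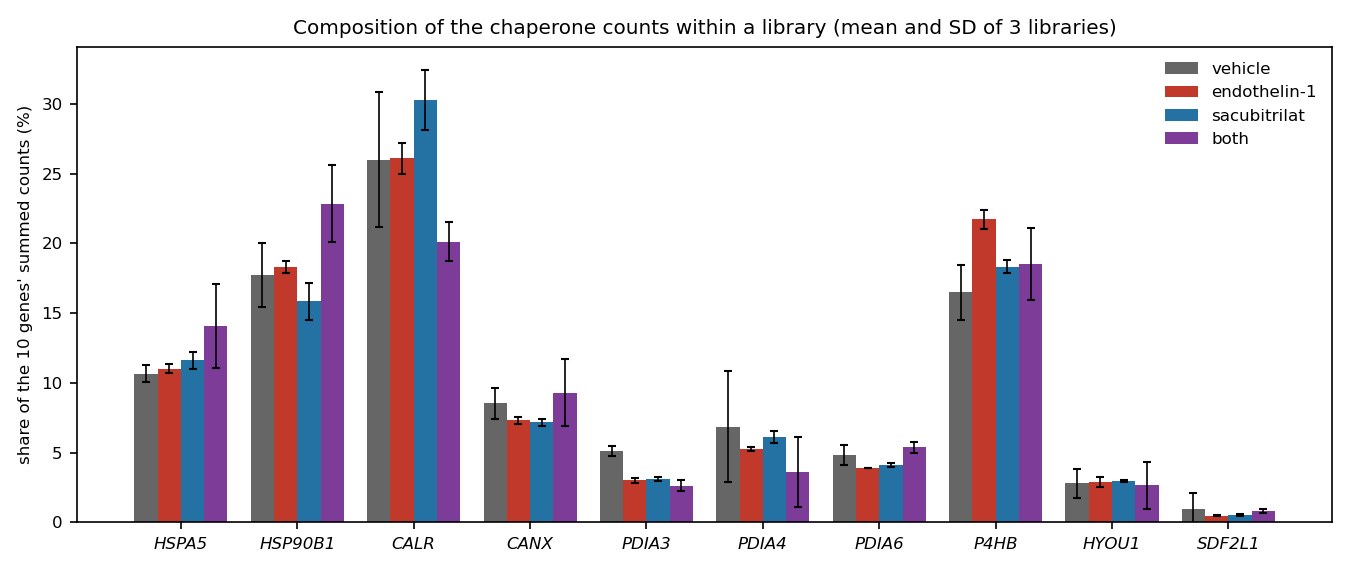
Share of the summed counts of the 10 genes that each gene supplied (%, vertical axis from 0), as the mean and SD of the 3 libraries of each group. The bar of CALR is highest with sacubitrilat and lowest with both, and the bar of PDIA3 is highest in vehicle.

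Other genes of protein folding were compared as lists, given as counts called and medians. Among 9 partners of BiP, endothelin-1 against both called 3 lower and none higher, with a median of -0.83 against -0.23 for all genes; the background of 16.6% of all genes higher and 17.8% lower holds for every count of this comparison below. These were HSPA13 (-1.96), an atypical HSP70 of the ER, DNAJB11 (-1.67), a soluble J-domain cochaperone, and SEC63 (-1.30), the J-domain protein of the translocon. SEC63 was also the 1 call of the 9 in vehicle against endothelin-1 (1.14, higher), a share near the 11% of all genes called higher. Of 12 other isomerases and oxidases tested, 3 were higher with endothelin-1 than with vehicle (all genes: 11% higher, 12.2% lower) and the same 3 lower with both than with endothelin-1 (all genes: 17.8% lower): TMX3 (1.40 and -1.82) and TXNDC5 (0.84 and -1.56), thioredoxin-like isomerases, and P3H1 (0.79 and -1.34), a collagen prolyl 3-hydroxylase. These 2 comparisons share the endothelin-1 libraries, so the opposite signs are not independent.

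Of 16 translocon, signal peptidase and KDEL receptor genes, which act in targeting and retrieval, 9 were lower with both than with endothelin-1, 1, SSR4, was higher and 6 were not called (all genes: 17.8% lower, 16.6% higher), with a median of -0.81. KDELR3 was at -2.17, KDELR1 at -1.94 ± 0.26 (edgeR adjusted p = 2.62e-07) and SEC61B, a subunit of the translocation channel, at -1.43; the KDEL receptors return escaped chaperones such as BiP from the Golgi. With endothelin-1 against vehicle KDELR1 (0.90) and SPCS3 (0.82; edgeR adjusted p = 0.0662 with the replicate block), a signal peptidase subunit, were the 2 called, both higher. A share of 2 in 16 is near the 11% of all genes called higher. Among 8 genes of prolyl isomerisation and collagen folding, SERPINH1, the collagen chaperone HSP47, was at 1.23 ± 0.20 (edgeR adjusted p = 1.45e-05) with endothelin-1 against vehicle and at -1.88 with both against endothelin-1, CRTAP at 0.64 (edgeR adjusted p = 0.0597 with the replicate block) and -1.94, and the prolyl isomerase FKBP9 at -2.11 in the latter. SERPINH1 and CRTAP were the 2 of 8 called in endothelin-1 against vehicle (all genes: 11% higher, 12.2% lower). With both against endothelin-1, 3 of the list were called lower and 2, FKBP10 and FKBP14, higher (all genes: 17.8% and 16.6%), and the median was 0.15. SERPINH1, CRTAP, P3H1 and P4HB act on collagen, and the fibroblast markers given above moved in the same direction in both comparisons; their part in this result was not tested.

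Among the quality control genes, of 10 genes of glycoprotein folding, both against endothelin-1 called the cargo receptor LMAN1 (-1.19) and EDEM2 (-2.13), which trims mannose from misfolded chains, lower, and PRKCSH (0.75), the beta subunit of glucosidase II, higher, so 2 of 10 were lower and 1 higher (all genes: 17.8% and 16.6%). EDEM2 was at 1.13 with endothelin-1 against vehicle, the 1 call of the 10 there and a share near the 11% of all genes called higher. Of 12 genes of ER-associated degradation, with a median of -0.53 in both against endothelin-1, FAF2 (-1.44) and the lectin OS9 (-0.94) were lower with both, a share of 2 in 12 near the 17.8% of all genes. Of 7 secreted UPR targets, RCN1, a calcium-binding protein of the ER, was lower with endothelin-1 than with vehicle (-1.04) and higher with both than with endothelin-1 (1.07), while SDF4 was lower with both (-1.08; edgeR adjusted p = 0.0547 with the replicate block).

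Of 14 transcripts of UPR regulators, 1 was higher and 3 were lower with both than with endothelin-1 (all genes: 16.6% and 17.8%), with a median of -0.17; against sacubitrilat 2 were higher and 4 lower (all genes: 17.2% and 17.8%), with a median of -0.30. Their difference from the chaperones was not tested. XBP1, DDIT3 (CHOP) and HERPUD1 were not called in any of the 6 pairwise comparisons or in the interaction. In vehicle against endothelin-1 XBP1 was at -0.28 ± 0.28 and HERPUD1 at -0.25 ± 0.36, and in vehicle against sacubitrilat at -0.029 ± 0.28 and -0.31 ± 0.36. With endothelin-1 against vehicle, 2 of the 14 were called higher and 2 lower (all genes: 11% and 12.2%). ATF4, the translation-controlled factor of the PERK arm, was lower there (-0.69 ± 0.26, edgeR adjusted p = 0.0477, or 0.0574 with the replicate block). PPP1R15A, which reverses the block on translation, was higher with endothelin-1 than with vehicle (1.89) and lower with both than with endothelin-1 (-1.32). ATF6, whose cleaved form binds ERSE, was lower with both than with sacubitrilat (-0.95 ± 0.33, edgeR adjusted p = 0.0213). ATF6B was lower with endothelin-1 than with vehicle (-1.69) and higher with both than with endothelin-1 (2.03). MBTPS1, the protease that begins the cleavage of ATF6, was at -1.99 with both against endothelin-1. Gene-level counts hold neither XBP1 splicing nor protein cleavage.

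Outside the ER, 18 cytosolic and mitochondrial chaperones were called 3 higher and 3 lower with both than with endothelin-1, with a median of -0.070, shares close to the 16.6% and 17.8% of all genes. The heat shock genes HSPA1A and HSPA1B, near-identical copies that can share reads, were at -2.66 and -1.82 with endothelin-1 against vehicle and at 2.97 and 1.96 with both against endothelin-1, opposite in sign to most of the ER chaperones, and HSPH1 was at -1.95 in the latter. HSP90AA1 was at 0.56 with endothelin-1 against vehicle (edgeR adjusted p = 0.0915 with the replicate block). Of 10 calcium store genes, 3 were higher and 1 lower with endothelin-1 than with vehicle (median 0.17; all genes 11% and 12.2%), and 2 were higher and 3 lower with both than with endothelin-1. The median in the latter was 0.24, above 0, while the named PLN and RYR2 were below 0. PLN, which encodes the calcium pump inhibitor phospholamban, was at 1.85 with endothelin-1 against vehicle and -3.61 with both against endothelin-1, RYR2, the calcium release channel, at 1.01 and -2.00, and SRL at 1.22 in the latter. In the like-depth comparison of endothelin-1 with sacubitrilat, 5 of these 10 were higher with endothelin-1 (all genes: 6.44%), among them HRC (1.18), PLN (0.82) and ITPR1 (0.81). That comparison also called CREB3L1 (-0.59), SEC61B (-0.35), DNAJA1 (-0.48) and CCT2 (-0.34) lower and SRPRB (0.47) higher with endothelin-1; with the replicate block SEC61B (edgeR adjusted p = 0.0859), CCT2 (0.0964) and SRPRB (0.059) no longer passed. None of the 20 genes that edgeR called between both and vehicle belonged to these lists.

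**Figure D4:**
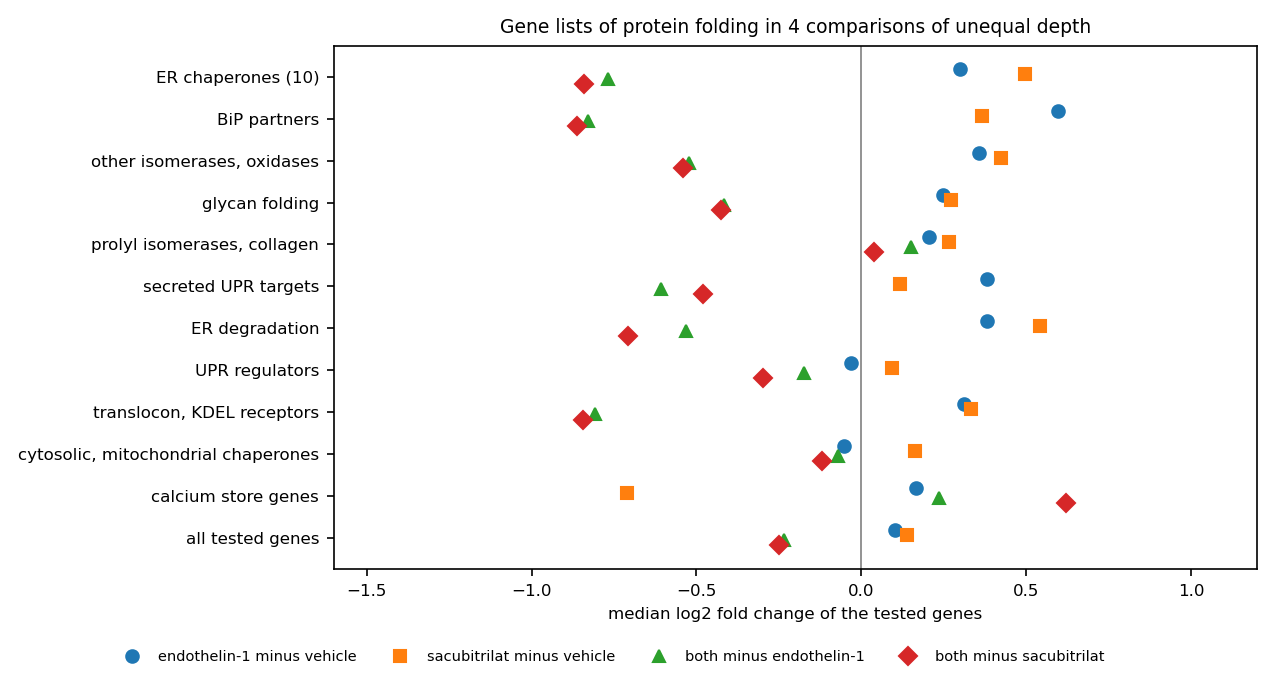
Median log2 fold change of the tested genes of each folding list (rows) and of all tested genes (bottom row) in the 4 comparisons of a deep with a shallow group (symbols). In the 2 comparisons of both with a single compound, the ER chaperones, BiP partners and translocon genes lie left of the bottom row (medians of -0.77 to -0.86 against -0.23 and -0.25), the calcium store genes lie right of it (0.24 and 0.62), and the UPR regulators lie close to it.

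Across the 12 libraries the chaperone genes were unequally alike. Against the mean of the other 9 (standardised log2 CPM), Pearson's r was 0.952 for CALR, 0.873 for P4HB, 0.848 for CANX, 0.805 for HSPA5, and 0.691 to 0.757 for PDIA4, PDIA3, HYOU1, HSP90B1 and PDIA6, while SDF2L1 was at -0.042. Of 3195 other genes with a mean of at least 50 CPM, those most like the mean of all 10 were PPIA (r = 0.985), a cytosolic prolyl isomerase, RPL15 (0.985), the pseudogene RPS2P46 (0.983), TMEM258 (0.981), a subunit of the oligosaccharyltransferase, and RPS15A (0.973). The libraries share the 2 depth classes, so these values are a description of them.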

How the data were processed

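Poly(A) RNA was captured with a primer carrying a unique molecular identifier and sequenced as stranded, single-end 3′-end libraries, per the labels' protocols. The submitters' processing notes name fastp 0.24.0 for trimming, featureCounts for counting, and the GRCh38 build; which aligner, annotation release and strand setting were used, and whether identifiers were collapsed, is not given in the sources used here. The authors deposited estimated counts for every gene, of which 5.77% were not whole, and deposited CPM values, which matched the counts divided by the library totals. Of 78986 features 92 spike-in sequences, all at 0 counts, were left out.

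Counts were rounded, scaled by TMM, filtered by filterByExpr (11203 genes kept, all 10 chaperone genes included) and tested over 12 libraries in 1 model of 4 groups with the edgeR 4.0.16 quasi-likelihood test (R 4.3.3), with Benjamini-Hochberg adjustment over all tested genes at 0.05. The test was checked on simulated counts. Of genes changed 2-fold it recovered 60% in endothelin-1 against vehicle and 32% in both against endothelin-1. In both against vehicle it recovered 22%, and in endothelin-1 against sacubitrilat 92%. At 1.5-fold these shares were 14%, 2%, 2% and 58%. In each simulation only 50 genes were changed at each fold size, of 10013 in the fit of both against endothelin-1. In the data 3854 genes were called in that comparison and 20 in both against vehicle. The adjustment for many tests therefore differed, and these shares do not measure recovery in the data. An absent call of a small difference still carries little weight in the shallow groups, where counts were few. Cultures were independent, per the series' design text. Poisson intervals of CPM values cover counting error only, while intervals of log2 fold changes come from the edgeR fit and include the spread between cultures.

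The 10 genes and all gene lists were chosen with earlier results of these data known. From each other folding list the text names up to 3 called genes with the largest log2 fold change and a mean of at least 20 CPM in the 2 primary and the 2 like-depth comparisons; ATF4, XBP1, ATF6, DDIT3 and HERPUD1 are always reported. SSR4, FKBP10 and FKBP14 were added after their values were seen. The genes most alike were the 5 with the highest Pearson r, at 50 CPM or more.

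In the labels the batch of a library is its replicate number, so a fit with it as a block was run, and its adjusted p stands beside each named gene whose call it ended. Deviations of same-numbered libraries from their group means had r from -0.15 to 0.040 over 18 pairs. Other tools tried were DESeq2 1.42.0 and limma-voom (limma 3.58.1), and other settings were a scaling by RLE, genes unfiltered or filtered at a mean of 50 counts, the block, fits of the compared groups alone, thinning to 80000 counts, leaving out 1 library or the 2 under 100000 counts, and exchanged labels. Promoter windows are from RefSeq on GRCh38.p14 and gene positions from GENCODE 29. Figures were drawn with matplotlib 3.10.9.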

Additional observations from a re-analysis of the deposited data

Results flagged for a closer look

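For 7 chaperone genes the effect of sacubitrilat differed between cultures with and without endothelin-1, by the interaction term of the edgeR model (adjusted p under 0.05). Each value is the log2 effect with endothelin-1 minus the log2 effect without it, and below 0 where the first effect was the lower one. CALR was at -1.92 ± 0.31 (effects of -1.18 with and 0.74 without endothelin-1) and HYOU1 at -1.85 ± 0.46 (-1.04 and 0.81). PDIA4 was at -1.78 ± 0.39 (-1.17 and 0.61) and P4HB at -1.70 ± 0.28 (-1.02 and 0.68). HSPA5 was at -1.20 ± 0.26 (-0.50 and 0.70), HSP90B1 at -0.90 ± 0.26 (-0.52 and 0.38) and CANX at -0.79 ± 0.29 (-0.43 and 0.36). Of all 11203 genes 46.1% were called in the same contrast, and its 2 sides are the deep and the shallow libraries, so it cannot be told apart from depth. At 80000 counts per library CALR (-1.62), HSPA5 (-1.33), P4HB (-1.17) and HSP90B1 (-0.86) were called. The share of all genes called in that fit is not given here, so these calls are not set against other genes.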

How the results depend on the processing

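Of 1465 alternative values of the 10 genes in 7 contrasts, 1241 kept their direction and their side of the threshold, 59 passed where the reported value did not, 107 no longer passed and 58 changed sign. The cause of these changes was not tested, except that fewer genes or libraries entered some fits: 1815 genes after thinning, 2969 at a mean of at least 50 counts, 7228 to 7272 without a deep library and 13671 to 14076 without a shallow one. Without a filter the median of all genes in both minus endothelin-1 was -0.50 in place of -0.23, and that of the 10 genes -1.25. Depth limits most the genes with few counts in the 6 shallow libraries: SDF2L1 held 1 to 4, HYOU1 2 to 15, PDIA6 7 to 36, PDIA4 1 to 37 and PDIA3 4 to 38.5.

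Counts of called chaperone genes moved as follows. Endothelin-1 against vehicle, 1 as reported, gave 3 with RLE scaling, 3 with no filter, 2 at a mean of at least 50 counts, 4 with DESeq2, 3 with limma-voom, 0 after thinning, 2 without the 2 libraries under 100000 counts and 5 with labels exchanged. Sacubitrilat against vehicle, 5 as reported, gave 2 at a mean of at least 50 counts, 3 with limma-voom, 2 with only the groups compared, 1 after thinning and 1 with labels exchanged. Both against endothelin-1, 7 as reported, gave 2 at a mean of at least 50 counts and 1 after thinning, and both against sacubitrilat, 7 as reported, gave 4 and 4. Beside these stand the calls over all genes in endothelin-1 against vehicle, sacubitrilat against vehicle and both against endothelin-1. They were 992, 792 and 1349 of 2969 at a mean of at least 50 counts and 455, 397 and 781 of 1815 after thinning. Both against vehicle, 0 as reported, gave 2 with DESeq2 and 2 without the 2 libraries under 100000 counts. Endothelin-1 against sacubitrilat, 1 as reported, gave 0 with no filter, DESeq2, limma-voom and thinning, and 3 with only the groups compared and without the 2 libraries under 100000 counts. The interaction, 7 as reported, gave 4 at a mean of at least 50 counts and 4 after thinning. Leaving out 1 library gave 1 to 4, 2 to 5, 4 to 8, 6 to 9, 0 to 2, 0 to 2 and 6 to 9 called genes in endothelin-1 against vehicle, sacubitrilat against vehicle, both against endothelin-1, both against sacubitrilat, both against vehicle, endothelin-1 against sacubitrilat and the interaction. With the replicate block the counts were 1, 3, 5, 6, 0, 0 and 7 in that order, and beyond the losses given above the block changed no other call of a chaperone gene.

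Values that changed sign follow. In endothelin-1 minus vehicle, CANX was at -0.039 at a mean of 50 counts. PDIA3 was at -0.54 to 0.0092 with 1 library left out (1 of 12 reversed). PDIA4 was at -0.035 at a mean of 50 counts and -0.40 after thinning. PDIA6 was at -0.26 at a mean of 50 counts, -0.086 with only the groups compared, -0.088 without the 2 libraries under 100000 counts and -0.083 to 0.37 with 1 library left out (7 of 12 reversed). SDF2L1 was at -0.52 to 1.10 with 1 library left out (1 of 6 reversed). In sacubitrilat minus vehicle, CANX was at -0.0087 after thinning. PDIA3 was at 0.032 with no filter, 0.023 after thinning and -0.34 to 0.19 with 1 library left out (1 of 12 reversed). PDIA6 was at -0.016 at a mean of 50 counts. SDF2L1 was at -0.30 to 1.32 with 1 library left out (1 of 6 reversed). In both minus endothelin-1, PDIA6 was at 0.083 at a mean of 50 counts. SDF2L1 was at 0.29 with limma-voom and 0.059 with only the groups compared. In both minus sacubitrilat, CANX was at 0.098 after thinning. SDF2L1 was at 0.073 with limma-voom. In both minus vehicle, HSPA5 was at 0.12 at a mean of 50 counts, 0.095 after thinning and -0.18 to 0.016 with 1 library left out (7 of 12 reversed). HSP90B1 was at 0.062 at a mean of 50 counts. CANX was at 0.089 after thinning. SDF2L1 was at -0.15 with no filter, -0.019 with the replicate block and -0.81 to 0.92 with 1 library left out (4 of 6 reversed). In endothelin-1 minus sacubitrilat, HSP90B1 was at -0.16 after thinning. CANX was at 0.16 after thinning. P4HB was at -0.026 after thinning. Exchanged labels turn this comparison by construction, with HSPA5 at 0.24, HSP90B1 at -0.050, CALR at 0.38, CANX at 0.14, PDIA3 at 0.18, PDIA4 at 0.38, PDIA6 at 0.24, P4HB at -0.081, HYOU1 at 0.19, SDF2L1 at 0.22. In the interaction, PDIA6 was at 0.099 at a mean of 50 counts. SDF2L1 was at -1.50 to 0.0096 with 1 library left out (1 of 6 reversed).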
